A study of Mus musculus with 2 samples.

Results

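Oxidant defence in mouse glomeruli was read from 10 genes, namely 9 antioxidant enzymes (Sod1, Sod2, Sod3, Gpx1, Gpx3, Gclc, Gclm, Nqo1 and Txnrd1) and Nox4, an oxidase that makes hydrogen peroxide. They were taken by name, and each was read from every probe set that the array annotation ties to that gene alone. This gave 23 probe sets of the 34945 with 1 gene symbol, and 10 genes of 18193. All 10 genes were measured, meaning that at least 1 array had a signal at or above a floor of 52.7.

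Glomeruli had been sieved from kidneys of male mice on the C57BL/6J background. All were fl/fl at both GC-A, which encodes a natriuretic peptide receptor, and p38, which encodes a stress-activated kinase. The double knockout was Cre/+ for Nephrin-Cre, a transgene whose nephrin promoter drives Cre in podocytes, and the floxed control was +/+ for it, read here as lacking Cre. Both genotypes were 2 months old and had been given a diet with 6% NaCl plus aldosterone, 0.2 µg per kg body weight per minute, from a minipump for 3 weeks. There was 1 array per genotype, and the number of mice behind an array is not given in the labels. No value below therefore has a replicate error or a test, precision is limited by the number of arrays, and "lower" and "higher" describe the double knockout array against the floxed control array.

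Superoxide is turned into hydrogen peroxide by 3 superoxide dismutases that sit in the cytosol (Sod1), in mitochondria (Sod2) and outside the cell (Sod3). Hydrogen peroxide is then removed by catalase, by the peroxiredoxins and by the glutathione peroxidases, which draw on glutathione; the first step of glutathione synthesis is catalysed by glutamate-cysteine ligase, made of the subunits encoded by Gclc and Gclm. Gclc, Gclm, Nqo1 and Txnrd1 are textbook targets of the transcription factor NRF2. Nox4 is abundant in kidney cortex, mainly in tubule cells, and the secreted peroxidase Gpx3 is made largely by the proximal tubule.

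The NRF2 targets share a binding motif in many known enhancers, the antioxidant response element, whose core TGACNNNGC was sought on both strands of promoter windows from RefSeq (GRCm38.p6; 250 bases before to 50 after a start site). On the opposite strand it reads GCNNNGTCA, and the 2 forms were counted together. The windows below are shown because they hold that core, given in capitals, or, for Nqo1, because its array difference was the largest of the 4 NRF2 targets among the 10 genes.

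Gclm (chr3:122245307-122245606, plus strand): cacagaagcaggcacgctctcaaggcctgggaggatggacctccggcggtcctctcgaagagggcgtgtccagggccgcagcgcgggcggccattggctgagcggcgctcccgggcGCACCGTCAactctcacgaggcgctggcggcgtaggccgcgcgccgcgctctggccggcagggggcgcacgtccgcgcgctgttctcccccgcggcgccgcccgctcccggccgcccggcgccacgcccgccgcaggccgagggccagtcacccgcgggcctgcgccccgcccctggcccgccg

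Txnrd1, the middle of 3 start sites (chr10:82858956-82859255, plus strand): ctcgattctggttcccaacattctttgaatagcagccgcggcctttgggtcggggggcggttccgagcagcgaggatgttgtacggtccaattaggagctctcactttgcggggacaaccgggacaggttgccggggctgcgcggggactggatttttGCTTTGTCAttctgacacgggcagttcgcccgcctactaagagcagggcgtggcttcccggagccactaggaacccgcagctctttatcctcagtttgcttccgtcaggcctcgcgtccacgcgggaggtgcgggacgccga

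Sod1 (chr16:90220512-90220811, plus strand): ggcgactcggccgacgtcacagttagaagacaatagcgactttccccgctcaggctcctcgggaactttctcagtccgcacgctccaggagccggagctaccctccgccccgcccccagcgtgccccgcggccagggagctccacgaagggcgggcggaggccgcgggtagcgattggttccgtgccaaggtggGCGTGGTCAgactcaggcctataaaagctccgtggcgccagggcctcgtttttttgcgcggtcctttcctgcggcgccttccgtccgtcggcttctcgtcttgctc

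Nqo1 (chr8:107403156-107403455, minus strand): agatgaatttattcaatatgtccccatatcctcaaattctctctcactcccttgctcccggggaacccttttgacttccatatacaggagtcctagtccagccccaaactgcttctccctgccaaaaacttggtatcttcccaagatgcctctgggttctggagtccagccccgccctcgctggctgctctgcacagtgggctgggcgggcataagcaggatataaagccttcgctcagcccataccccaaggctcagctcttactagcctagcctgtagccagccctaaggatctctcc

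The table of promoters held 10 windows for 8 of the genes, and Sod3 and Gclc had none in it. A core match was found in 3 of the 10 windows, those of Gclm, of Sod1 and of 1 of the 3 Txnrd1 start sites. All 3 matches were on the opposite strand, with their first printed base 134, 56 and 92 bases before the start site in Gclm, Sod1 and Txnrd1. Over all 32851 windows of the same length 12.4% held a match. The windows of Nqo1, Nox4, Gpx1, Gpx3 and Sod2 did not hold these letters.

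All 10 genes read lower in the double knockout, against 43.9% of the 13290 measured genes. This direction turned for Gpx3 after quantile normalization, for Gpx1 and Gpx3 after removal of the trend of the difference on signal, and for 7 genes when differences were set against proximal tubule markers. That last setting raises every gene by the same amount, and 6.2% of measured genes were below 0 under it. As deposited, Sod3, Sod2 and Nqo1 were at least 1.5-fold lower, which 10.02% of measured genes were, and 0 of the 10 were at least 1.5-fold higher, against 13.7% of measured genes. With the arrays centred on their medians, 13.0% of measured genes were at least 1.5-fold lower and 10.7% higher. The median log2 difference of the 10 was -0.42, with a range from -0.96 to -0.18, and that of all measured genes was 0.07. The median of the 10 shrank to -0.26 with the trend on signal removed and to -0.27 after quantile normalization. Of the 23 probe sets, 21 reached the floor on both arrays, and all 21 read lower, against 43.2% of 22273 such probe sets of all genes. The 2 others, both of Sod1, were below the floor on both arrays.

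**Figure D1:**
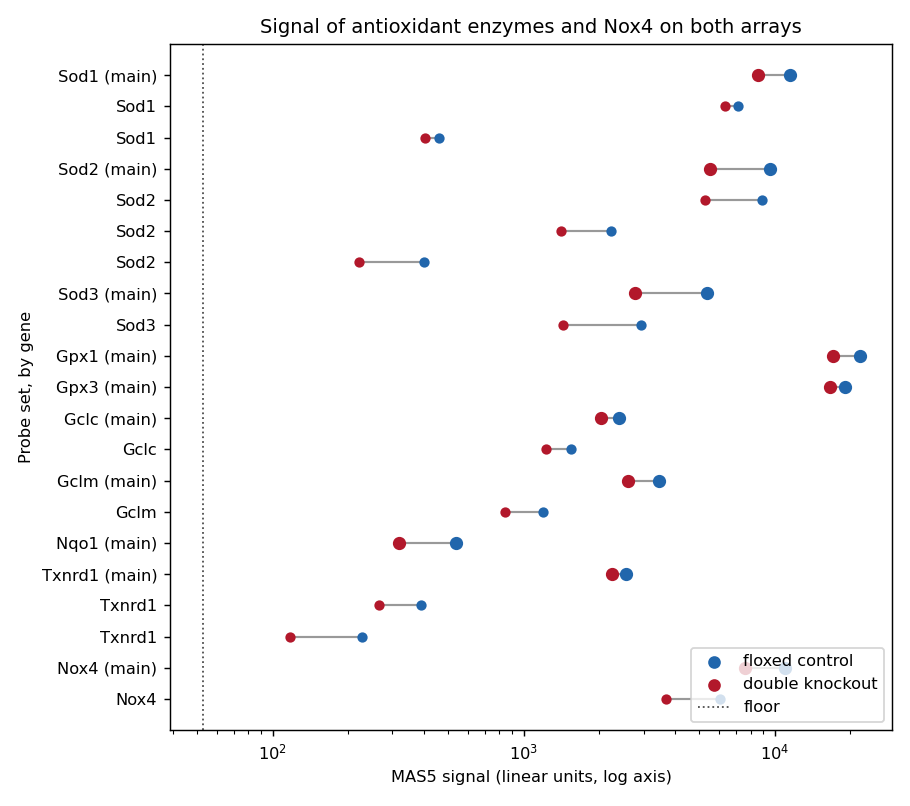
MAS5 signal (log axis) of the 21 probe sets of the 10 genes that reached the floor on both arrays, as joined points for the floxed control (blue) and the double knockout (red); large points are the probe set used for the gene and the dotted line is the floor of 52.7. The red point is to the left of the blue one in each of the 21 rows, with the widest gaps in Sod3.

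Among the dismutases the extracellular enzyme gene Sod3 differed most. Its signal was 2762 in the double knockout against 5359 in the control, and its second probe set read 1429 and 2930. The control was close to double the knockout signal by both, with log2 differences of -0.96 (1.94-fold lower) and -1.04 (2.05-fold lower). Of all measured genes, 3.38% read as low as Sod3 or lower by the brighter probe set.

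Sod2, the mitochondrial manganese enzyme, had 4 probe sets, and these covered a wide span of brightness. The brightest gave 5502 in the double knockout against 9547 in the control, the next 5288 against 8888, then 1410 against 2229, and the dimmest 221 against 401. The log2 differences lay between -0.86 and -0.66, so that every probe set of Sod2 was past 1.5-fold, and the brightest gave 1.74-fold. With the trend on signal removed Sod2 was at -0.58, just short of 1.5-fold.

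Sod1, the cytosolic copper and zinc enzyme, differed less. Its signals were 8538 in the double knockout against 11448 by the brightest probe set, a log2 difference of -0.42 (1.34-fold lower). The next probe sets read 6305 against 7160 and 406 against 462, with log2 differences of -0.18 and -0.19. The brightest Sod1 probe set thus gave a wider gap than the other two.

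The glutathione peroxidases had small differences, from probe sets at the bright end of the arrays. Gpx1, the main intracellular peroxidase, read 17106 in the double knockout against 21757 in the control (log2 difference -0.35). Gpx3 read 16582 and 19091 (log2 difference -0.20). Each has only 1 probe set. At their brightness genes in general read lower in the double knockout: the trend of the difference on signal over all measured genes was -0.38 at the signal of Gpx1 and -0.37 at that of Gpx3. With the trend removed Gpx1 was at 0.04 and Gpx3 at 0.17, and after quantile normalization they were at -0.07 and 0.09.

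The subunits of glutamate-cysteine ligase differed in the same direction by both probe sets of each. The modifier subunit gene Gclm read 2606 in the double knockout against 3471 in the control, and 844 against 1189 in its second probe set (log2 differences -0.41 and -0.49). The catalytic subunit gene Gclc read 2033 against 2399, and 1223 against 1547 (log2 differences -0.24 and -0.34). None of these 4 probe sets reached 1.5-fold. The trend on signal at these genes was -0.05 and 0.00, so that the values hardly moved when it was removed.

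Nqo1, which reduces quinones to hydroquinones, gave a signal of 320 in the double knockout against 539 in the control. Its log2 difference was -0.75 (1.69-fold lower) from a single probe set, and 6.10% of measured genes read as low or lower. Where the trend on signal was removed Nqo1 moved further down, to -0.87.

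Txnrd1, the cytosolic thioredoxin reductase, had the least settled value. By the brightest probe set the signal was 2244 in the double knockout against 2547, a log2 difference of -0.18, the smallest of the 10 genes. A dimmer one read 266 against 391 (-0.55), and the last, of a kind that can bind related transcripts, 117 against 227 (-0.95). The mean over its probe sets was -0.56 in place of -0.18. For the 7 genes with 2 or more probe sets above the floor, the SD between probe sets of one gene was 0.19 on the log2 scale, and the Txnrd1 probe sets spread over 0.77.

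Nox4, the oxidase gene, read lower by both probe sets. The brighter one gave 7591 in the double knockout against 11013 in the control, a log2 difference of -0.54 (1.45-fold lower), and the other 3686 against 6042, a log2 difference of -0.71 (1.64-fold). One probe set was thus past 1.5-fold and the brighter one was not. With the trend on signal removed Nox4 was at -0.28, and after quantile normalization at -0.30. The median of the 9 antioxidant enzymes was -0.41, so Nox4 and the antioxidant enzymes lay on the same side of 0, with the differences of Sod3, Sod2 and Nqo1 larger in size than that of Nox4.

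**Figure D2:**
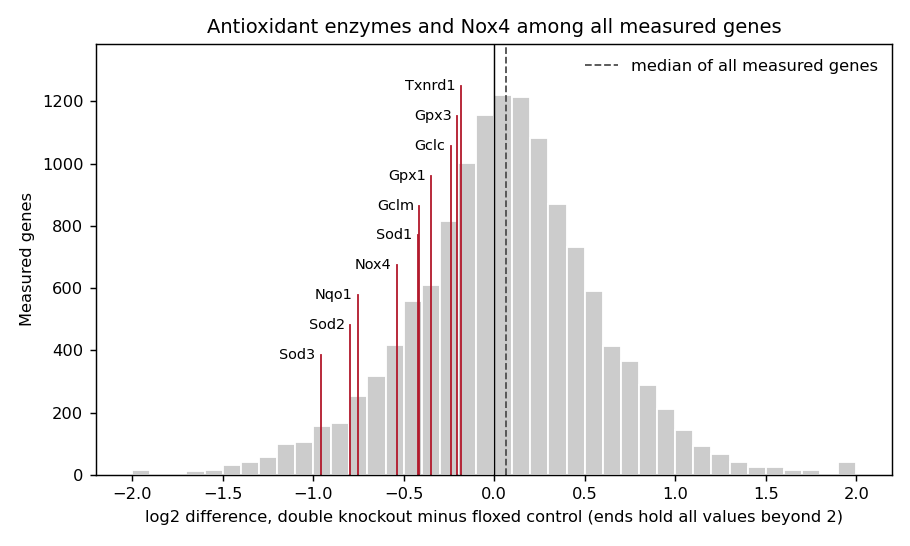
Histogram of the log2 difference, double knockout minus floxed control, of all 13290 measured genes, with red lines at the 10 genes; the height of a red line only makes room for its name. The 10 genes lie between -0.96 (Sod3) and -0.18 (Txnrd1), left of the median of all genes at 0.07.

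The 10 genes were also set beside genes of at least their brightness. Among the 8163 measured genes with both signals at or above 320, the lowest signal used for any of the 10, the median log2 difference was 0.04, 46.4% read lower in the double knockout, and 10.8% were at least 1.5-fold lower. Of those genes 3.54% read as low as Sod3 or lower, and 5.81% as low as Sod2 or lower.

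Other genes of the same pathways, in 5 lists, did not all read lower. The medians of the 5 lists given here were below 0 as deposited, and all 5 were above 0, from 0.04 to 0.67, once differences were recentred on proximal tubule markers. The median of all measured genes was then 0.82, so all 5 stayed below it. Glutathione metabolism was the list with the lowest median: 24 of 27 measured genes read lower, 16 of them at least 1.5-fold, and 2 were at least 1.5-fold higher (1 after median or 75th percentile centring), with a median log2 difference of -0.71. Gstz1, a glutathione transferase of tyrosine breakdown, read 1270 in the double knockout against 3317 in the control (2.61-fold lower). Ggct, of glutathione breakdown, read 612 against 1399 (2.29-fold lower, but 0.04 on the log2 scale in its second probe set), and the transferase gene Gsta3 738 against 1655 (2.24-fold lower). Gpx7 and Gpx8, which encode peroxidases of the endoplasmic reticulum, went the other way, at 647 against 335 (1.93-fold higher) and 2464 against 1622 (1.52-fold higher).

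Thioredoxins, peroxiredoxins and methionine sulfoxide reductases had a median of -0.24, or -0.03 with the trend on signal removed, with 10 of 17 lower, 3 of these at least 1.5-fold, and 1 at least 1.5-fold higher. The number at least 1.5-fold lower was 6 after median or 75th percentile centring and with the trend removed, and 5 after quantile normalization, and both centrings left 0 higher. Msra read 3975 in the double knockout against 8190 in the control (2.06-fold lower), Msrb1 2394 against 4332 (1.81-fold lower), and the mitochondrial peroxiredoxin gene Prdx3 3892 against 6803 (1.75-fold lower). Msrb3 read 1407 against 890 (1.58-fold higher). In the list of NRF2 regulators and targets 12 of 24 read lower and 12 higher, 3 and 3 of them past 1.5-fold, which is near the shares over all measured genes (43.9% lower, with 10.02% and 13.7% past 1.5-fold), and the median was -0.11. Parted after the values were seen, 6 of 7 regulators read higher (median 0.25) and 11 of 17 targets lower (median -0.29). The count of regulators depends on the probe set used. Another probe set lay across 0 for Nfe2l2 (-0.40), Mafg (-0.34) and Keap1 (0.24), with Mafg and Keap1 named outside the rule. The lowest of the whole NRF2 list were Me1, which encodes the NADPH-producing malic enzyme (3190 against 6414, 2.01-fold), the glutathione reductase gene Gsr (3253 against 5366, 1.65-fold), also on the glutathione list, and Cbr1 (1214 against 1956, 1.61-fold). The highest were the small MAF protein gene Maff (260 against 130, 2.00-fold), the aldo-keto reductase gene Akr1b8 (606 against 305, 1.98-fold) and the epoxide hydrolase gene Ephx1 (5232 against 3105, 1.68-fold). Nfe2l2, which encodes NRF2 itself, read 2726 in the double knockout against 2299 in the control (log2 difference 0.25, and -0.40 in a second probe set), and Hmox1, the heme oxygenase gene, 646 against 498 (0.38). The 4 NRF2 targets among the 10 genes read lower, as did 11 of the 17 other targets, while 6 of the 17 read higher.

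The oxidase genes lay on both sides of 0. Of 13 measured oxidase genes, 8 read lower and 5 higher, with 5 and 2 past 1.5-fold (1 higher with the floor at the 60th percentile, the trend removed or quantile normalization) and a median of -0.08, or 0.01 with the floor at the 25th percentile. Cyba, which encodes p22phox, the partner subunit of Nox4 and of the phagocyte oxidase, read 8953 in the double knockout against 13962 in the control (log2 difference -0.64), and Poldip2, which encodes a Nox4 activator, 1171 against 1782 (-0.61). The other genes of the phagocyte oxidase that were measured did not share the low value of Cyba. Cybb read 465 against 288 (1.61-fold higher) and Ncf4 162 against 87 (1.87-fold higher). Ncf1 was short of 1.5-fold at 196 against 144 (log2 difference 0.45), and Rac2 (160 against 164, -0.04) and Rac1 (11287 against 10838, 0.06) were near 0. Of the enzymes of substrate breakdown on the list, which release hydrogen peroxide, Hao2 (3746 against 11994, 3.20-fold), Maob (69.5 against 152, 2.18-fold) and Dao (2945 against 5146, 1.75-fold) were lower, whereas Maoa read 945 against 1001 (-0.08) and Xdh 608 against 501 (0.28). Cyba, Poldip2, Ncf1, Rac1, Rac2, Maoa, Xdh, Nfe2l2 and Hmox1 are named outside the rule, with their values already known, as is Cat below.

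The last list held catalase and the suppliers of metals and selenium, with 12 of 15 genes lower, 3 at least 1.5-fold lower, 1 at least 1.5-fold higher and a median of -0.32. After median or 75th percentile centring 5 were at least 1.5-fold lower. Cat itself read 10138 in the double knockout against 14437 in the control (log2 difference -0.51). The copper importer gene Slc31a1 read 1409 against 2701 (1.92-fold lower, but -0.45 on the log2 scale in its second probe set). Ccs, which encodes the chaperone that loads copper into Sod1, read 1581 against 2594 (1.64-fold lower). Atox1 and Atp7a, copper genes of the same list named outside the rule, were at -0.30 (0.13 in another probe set) and 0.09. Copper itself was not measured. Sephs2, needed to make the selenium donor of the selenoproteins, to which Gpx1, Gpx3 and Txnrd1 belong, read 3543 against 6117 (1.73-fold lower). The lactonase gene Pon2 read 2208 against 1313 (1.68-fold higher).

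**Figure D3:**
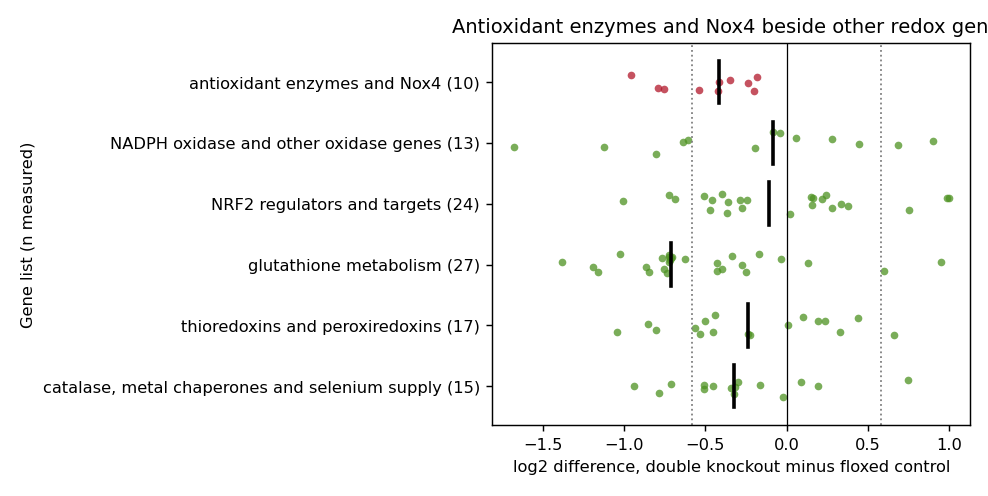
Log2 difference, double knockout minus floxed control, of each measured gene in the 10 genes (red) and in 5 lists of other redox genes (green), with the list median as a black bar and dotted lines at 1.5-fold. The 10 genes and the glutathione list (median -0.71) lie mainly left of 0, whereas the NRF2 list spans both sides of it.

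The cell types in the preparations differed in their markers, so the 10 genes were set beside them. Markers of the glomerulus were present: the slit diaphragm gene Nphs1 read 8373 in the double knockout against 5320 in the control, and all 15 measured podocyte markers read higher in the double knockout, by a median of 0.51 (summed signal 97266 against 72786). Endothelial markers were higher in 16 of 16 (median 0.62; summed 71334 against 44702), mesangial and mural markers in 12 of 13 (median 0.68; summed 58209 against 36989), and parietal epithelial markers in 6 of 8 (median 0.74; summed 14992 against 10116). Tubule markers were also bright, with the phosphate carrier gene Slc34a1 of the proximal tubule at 15607 and 22597. All 23 measured proximal tubule markers read lower in the double knockout, 19 of them at least 1.5-fold (median -0.75, range -1.66 to -0.28), and their summed signal was 210047 against 330545. Loop, distal tubule and collecting duct markers were lower in 16 of 16 (median -0.70, summed signal 60997 against 88119). The marker counts rest on the 1 probe set used for each gene. Some tubule and glomerular markers had another probe set across 0, such as Lrp2 (0.19) and Egfl7 (-0.26), both named outside the rule. In tissue RNA fewer cells of a type and less RNA per cell cannot be told apart, and the part of tubule RNA in the differences of the 10 genes was not tested.

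Set against those tubule markers, Sod3 was lower than 19 of the 23, Sod2 and Nqo1 were lower than 12, and Nox4 was lower than 4. By the probe set used for each gene, Gpx3, Gclc and Txnrd1 were above all 23, the highest of which was at -0.28. Other probe sets of Gclc (-0.34) and Txnrd1 (-0.55 and -0.95) were below that value. When every difference was recentred on the median of the proximal tubule markers, 3 of the 10 stayed below 0 (Sod3 at -0.21, Sod2 at -0.05 and Nqo1 at -0.0035) and 7 turned above it. The highest were Txnrd1 at 0.57, by its brightest probe set, and Gpx3 at 0.55. Of all measured genes 6.2% were below 0 after this recentring, and their median was 0.82. By the probe set used for each gene, each of the 10 was lower than all 52 glomerular cell markers. The margin was narrow, with the lowest marker at -0.15 and Txnrd1 at -0.18. Another probe set of the marker Egfl7 was at -0.26, below Txnrd1, Gpx3 and Gclc. The 52 markers had a median of 0.59, and relative to it the 10 genes ran from -1.55 for Sod3 to -0.77 for Txnrd1.

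Leukocytes could also carry some of these transcripts. Macrophage and monocyte markers were higher in 16 of 16, with a median of 0.91 and a summed signal of 14340 in the double knockout against 7929 in the control; C1qc was 2.72-fold and Ccr2 2.62-fold higher. The higher Cybb and Ncf4, genes of phagocytes, stood beside that shift, and its part in them was not tested. Neutrophil markers were lower in 7 of 7 at low signal (summed 1210 against 1836), with Mmp9 at least 2.49-fold and S100a9 1.73-fold lower. Several of the 7, Mmp9 among them, were below the floor in the double knockout, so their differences only measure how far the control lay above it. The median of the 7 was -0.27 and the value nearest 0 was -0.08. Lymphocyte markers (3 measured, summed signal 284 against 279) and erythroid markers (4 measured, summed 572 against 994) were dim, and most of the erythroid gap lay in Slc4a1 (220 against 659), which the collecting duct also expresses.

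**Figure D4:**
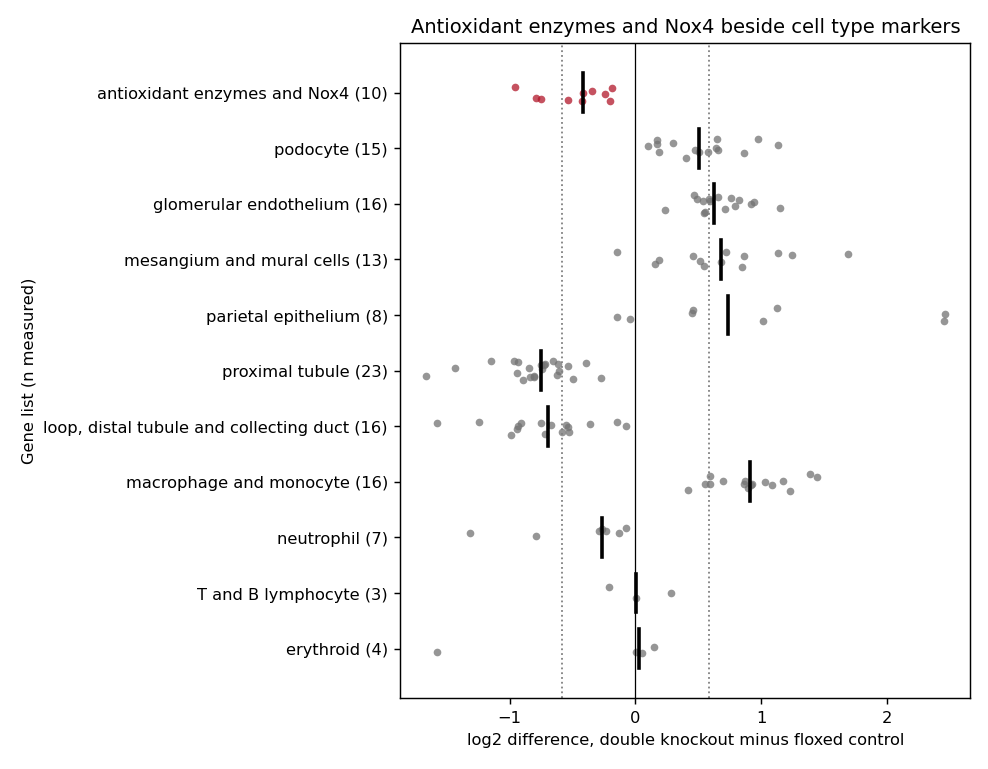
Log2 difference, double knockout minus floxed control, of the 10 genes (red) and of the measured markers of 10 cell types (grey), with medians as black bars and dotted lines at 1.5-fold. The median of the 10 genes (-0.42) lies between the medians of the tubule lists (-0.75 and -0.70) and of the glomerular lists (0.51 to 0.74). Sod3, Sod2 and Nqo1 lie below both tubule medians. Relative to the proximal tubule median Sod2 (-0.05) and Nqo1 (-0.0035) differ by less than the SD of 0.19 between probe sets of one gene.

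As to the arrays themselves, signals had a median of 94.7 (double knockout) and 88.6 (control). The 3′ over 5′ ratio was 1.29 and 1.36 for Actb and 0.697 and 0.706 for Gapdh, so the arrays were close in this measure of RNA quality. Npr1, which encodes GC-A, read 102 in the double knockout against 167 in the control. Mapk14, taken as the floxed p38 gene because the labels name no isoform, read 2607 and 2628; whether its probe sets lie in the floxed exons is not given in the sources used here, so they do not check the deletion.

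**Figure D5:**
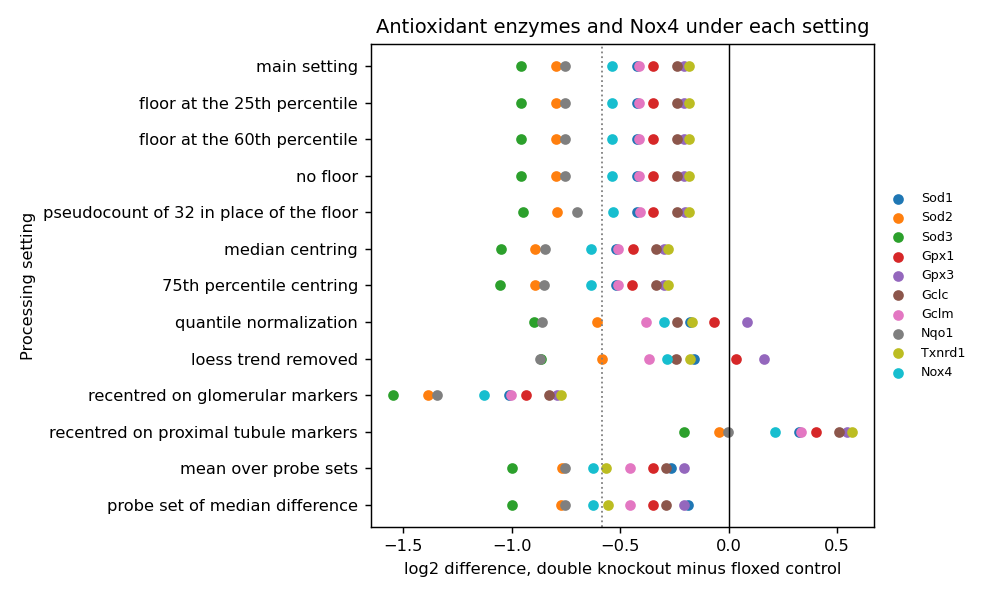
Log2 difference of each of the 10 genes (colours) under 13 processing settings, with 0 as a solid line and 1.5-fold lower as a dotted line. Gpx1 and Gpx3 cross 0 after removal of the trend on signal, Gpx3 after quantile normalization, and 7 genes after recentring on proximal tubule markers. That recentring raises every gene and leaves 6.2% of all measured genes below 0.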

How the data were processed

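Total RNA of sieved glomeruli was labelled with a 3′ in vitro transcription kit, per the labels' protocols, and read on 1-colour arrays. Per the submitters' processing notes MAS5 gave the deposited intensities, which are linear; its version is not given in the sources used here. From the values, the authors scaled both arrays to a mean intensity of 500.0 over probe sets, trimmed by 2% at each end. A difference is therefore relative to the other transcripts of the sample.

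Probe sets with 1 symbol were named from GEO's platform annotation. A gene was its brightest probe set, with probe sets of the _x_at kind used only where there was no other. Signals under the floor (mean over arrays of the 40th percentile, 52.7) were raised to it before log2, and a fold against such a signal is a lower bound. No test or error between animals was possible with 1 array per genotype. The genes, lists and the 1.5-fold rule were chosen with earlier results of these data known. Named in the text were all 10 genes, the 3 largest differences past 1.5-fold per direction of each redox list, genes among the 2 largest differences of each marker list, and exceptions stated as such (also Nphs1 and Slc34a1, added with their values known). Alternatives comprised other floors, a pseudocount of 32, other scalings, other choices of probe set and a 2-fold rule. The main step from signals to gene differences was tested on simulated signals, with known folds put into genes far above the floor. Other scalings, removal of the trend, recentring, the lists and the promoter search were not part of that test. Python 3.11.15, pandas 2.3.3 and statsmodels 0.14.6 were used.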

Additional observations from a re-analysis of the deposited data

How the results depend on the processing

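With 1 array per genotype there is no spread between animals to judge a shift by. A single gene was taken as moved where it shifted by more than 0.19 on the log2 scale, the SD between probe sets of one gene (0.097 without Txnrd1), and a count where it changed by more than 1.5 times. The median over the 10 genes stayed below 0 under other floors, the pseudocount, other choices of probe set, quantile normalization, removal of the trend, and centring each array at its 75th percentile or median. It ran from -0.51 with either centring to -0.26 with the trend removed, and 2 (trend removed) to 4 genes were at least 1.5-fold lower. Of all measured genes, 9.3% (mean over probe sets) to 13.0% (either centring) were at least 1.5-fold lower under these settings. Recentring on glomerular markers put 10 of the 10 genes at least 1.5-fold lower, with a median of -1.01, against 44.2% of measured genes, because it subtracts the same amount from every gene. Recentring on proximal tubule markers left 0 of the 10 genes at least 1.5-fold lower, against 0.80% of measured genes. It reversed the median of the 10, to 0.33, and that of the glutathione list, to 0.038. The median of all measured genes was then 0.82. With a 2-fold rule 0 of the 10 genes were lower. The share of all measured genes at least 2-fold lower was not computed. It is at most 3.38%, the share that read as low as Sod3 (-0.96) or lower. Sod3 was past 2-fold by its second probe set (-1.04) and with either centring (-1.05). Among the single genes Sod1, Sod2, Gpx1, Gpx3 and Nox4 moved under quantile normalization and removal of the trend (Sod1 to -0.18 and -0.16, Sod2 to -0.61 and -0.58), Txnrd1 moved to -0.56 with the mean over probe sets, and Sod1 to -0.19 with the probe set of median difference. No paired analysis was possible because each genotype has 1 array, and leaving out an array leaves no comparison.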

Other observations

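Several antioxidant systems have one enzyme in the cytosol and a like one in mitochondria, which allows a comparison within the same system. The pairs were chosen after the values were seen. The mitochondrial gene read lower than its cytosolic counterpart in 4 of 6 pairs. The log2 difference was -0.79 for Sod2 against -0.42 for Sod1. It was -0.57 for the thioredoxin gene Txn2 against -0.22 for Txn1, and -0.81 for the peroxiredoxin gene Prdx3 against -0.24 for Prdx2. For the thioredoxin reductases it was -0.53 for Txnrd2 against -0.18 for Txnrd1, but this gap became 0.02 with the mean over probe sets, which left 3 of 6 pairs. The other pairs went the other way, with Msrb1, of the methionine sulfoxide reductases, at -0.86 and its mitochondrial counterpart Msrb2 at -0.50, and with Glrx at -0.72 and Glrx2, whose main product is mitochondrial, at -0.40. The count depends on the pairs chosen: Glrx5, another glutaredoxin gene, was at -0.75, below Glrx, and was not paired. After quantile normalization and after removal of the trend on signal the mitochondrial gene was the lower one in 4 of 6 pairs, and the gap between Sod2 and Sod1 was -0.43 under both.

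Genes of selenoprotein synthesis other than Sephs2 were each short of 1.5-fold. The log2 difference was -0.45 for Sepsecs, -0.32 for Secisbp2 and -0.32 for Eefsec, which encode enzymes and factors of selenocysteine insertion, and -0.16 for Selenop, which encodes the selenium carrier (25319 in the control and 22619 in the double knockout). The selenoprotein genes among the 10, Gpx1, Gpx3 and Txnrd1, had differences of -0.35, -0.20 and -0.18 by the probe set used. Txnrd1 was at -0.56 by the mean over its probe sets. Selenoprotein genes outside the 10 were not gathered here. The genes named here were chosen with their values known. Apart from Sephs2 all of them, the 3 selenoprotein genes included, lay above 0 once differences were recentred on the proximal tubule median of -0.75. So did most measured genes, of which 6.2% were below 0 after that recentring.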
